A study of Mus musculus with 24 samples.

Results

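Grhpr encodes glyoxylate reductase/hydroxypyruvate reductase, a cytosolic enzyme of the D-2-hydroxyacid dehydrogenase family. The enzyme reduces glyoxylate to glycolate and hydroxypyruvate to D-glycerate. In humans, loss of it raises oxalate and L-glycerate in urine and causes an inherited hyperoxaluria. All probe sets whose platform symbol is Grhpr were taken. There was 1, among the 20380 probe sets with 1 gene symbol (12393 genes) and the 22626 non-control probe sets in all. It passed the filter on low values, as did 15838 probe sets. Grhpr itself was selected on measured values of these same arrays, its lower signal in hyperoxia than in room air, so its hyperoxia and room air values are given as a description with no test.

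The study profiled retinas of C57Bl/6 mouse pups on 24 expression arrays, 1 for each sample. The 12 hyperoxia arrays came from pups exposed for 12 hours at postnatal day 7, 24 hours at day 8, 72 hours at day 10 and 120 hours at day 12. The 12 room air arrays came from pups of the same ages, and each of the 8 groups held 3 arrays. Age and exposure time changed together in the hyperoxia groups and cannot be told apart. Every group was of the same strain, and the labels name no mutant allele or further agent. Oxygen concentration and animals per array are not stated in the labels, nor is it stated that replicates were separate animals. The p-values therefore reflect spread among these samples alone, and that spread may be technical.

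The deposited intensity of Nrl, a rod transcription factor that marks retina, lay between 23874.2 and 35326.1 over the arrays. It is 1 of 10 measured retina markers, and their sum varied more with age. The median sum was 134628 at day 7 and 194128 at day 12 in hyperoxia. In room air it was 150705 at day 7 and 203288 at day 12. Lens crystallins, which mark lens tissue, varied widely. The summed intensity of 14 measured lens markers was 2626 to 258174 over the hyperoxia arrays and 1392 to 277525 over the room air arrays. Within ages this sum was uneven between conditions. At day 8 it was 2626 to 8600 in hyperoxia and 7732 to 160503 in room air. At days 7, 10 and 12 the hyperoxia median was the higher, with 257397 against 42460 at day 12. Hyperoxia day 12 replicate 2 and room air day 8 replicate 1 correlated least with the rest of their groups.

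The gene lies at chr4:44981394-44990734 on the forward strand of GRCm38.p6 and spans 9341 bases. RefSeq gives it 1 promoter window, which runs from 250 bases before to 50 bases after the transcription start. The 250 bases before the start, chr4:44981144-44981393, are printed because the genes whose signal followed Grhpr most closely were mostly listed targets of hypoxia-inducible factor (HIF), whose core binding letters are ACGTG or GCGTG. HIF is the transcription factor that accumulates at low oxygen and is degraded when oxygen is plentiful. The capitals mark CCGCCC, a GC box of the kind bound by Sp-family factors.
Grhpr upstream: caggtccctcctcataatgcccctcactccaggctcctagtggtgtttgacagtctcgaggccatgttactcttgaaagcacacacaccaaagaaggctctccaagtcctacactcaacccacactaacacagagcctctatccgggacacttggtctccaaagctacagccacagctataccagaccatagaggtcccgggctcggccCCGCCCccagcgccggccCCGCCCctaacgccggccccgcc
CCGCCC occurred 2 times, and 16.7% of all RefSeq promoter windows held it at least as often; the search covered both strands, and these letters were chosen after the sequence was seen. GC content was 60.4% over the 250 bases and 90.0% over the last 50 of them. Neither ACGTG nor GCGTG was found in these 250 bases on either strand.

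ACGTG occurred 1 time in the Grhpr window, at base 36 counted from 1 at the first transcribed base. The 30 bases around it, chr4:44981414-44981443, are printed beside stretches from Pfkl, Ak4, Pgk1 and Bnip3. Those are the genes closest to Grhpr in pattern that hold the letters upstream on the coding strand. Pfkl is shown at chr10:78009889-78009918 (reverse strand), Ak4 at chr4:101419478-101419507 (forward), Pgk1 at chrX:106186938-106186967 (forward) and Bnip3 at chr7:138909596-138909625 (reverse). The sequences are from RefSeq, build GRCm38.p6, and the capitals mark ACGTG or GCGTG.
Grhpr: caaggccagcctggtACGTGtttgctgctg
Pfkl: atttgtagactgGCGTGcgctccgcctttc
Ak4: cccactctgcccACGTGcggggaccggcag
Pgk1: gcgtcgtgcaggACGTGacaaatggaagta
Bnip3: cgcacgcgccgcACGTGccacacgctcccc
The Grhpr match lies after the start and those of the other 4 lie before it. Over all 32851 mouse windows of 300 bases, 19.6% held ACGTG on either strand, 32.4% held GCGTG and 43.8% held at least 1 of them. The palindrome CACGTG counts as ACGTG on both strands. By window, 11 of the 13 of the 10 genes most like Grhpr (84.6%) held at least 1 of them. So did 35 of the 43 of the tested HIF targets (81.4%). These windows covered 9 of the 10 genes and 28 of the 33 targets. Of the lists described below, serine and glycine genes held at least 1 in 13 of 16 windows (81.2%). The count was 6 of 10 for glyoxylate, 4 of 8 for methylglyoxal and 3 of 4 for dehydrogenase family genes. ACGTG itself was in 6 windows of the genes most like Grhpr and 26 of the HIF targets. In the lists it was in 2, 1, 1 and 0 windows, in the order given. The sets were not compared by a test. A match describes the letters only and is not a measured binding site.

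Grhpr signal was lower in hyperoxia than in room air at days 7, 8 and 10, and the groups did not overlap at those ages. At day 12 the groups overlapped. In bulk tissue, fewer cells of a type that makes the transcript and less transcript per cell cannot be told apart. At day 7 the deposited intensity was 928.5, 986.4 and 908.0 in hyperoxia, against 1468.2, 2107.5 and 1655.9 in room air. At day 8 it was 875.2, 946.9 and 865.4 in hyperoxia, against 2193.2, 1691.7 and 1458.8 in room air. At both ages every hyperoxia array was below every room air array, and the room air arrays were the more spread.

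At day 10 the intensity was 1033.9, 1072.4 and 959.0 in hyperoxia, against 1928.9, 1657.9 and 1504.3 in room air. At day 12 it was 1378.6, 1813.5 and 1376.4 in hyperoxia, against 2031.2, 1865.9 and 1702.2 in room air. Thus day 12 hyperoxia replicate 2 lay within the room air range of its age, and the other 2 arrays lay below it. The 9 hyperoxia arrays of days 7, 8 and 10 spanned 865.4 to 1072.4 (median 946.9), and all 12 room air arrays spanned 1458.8 to 2193.2 (median 1697). All hyperoxia arrays lay below all room air arrays at 2.93% of tested probe sets on day 7, 5.5% on day 8, 11.9% on day 10 and 6.68% on day 12, and at 0.0884% on every one of the 4 days.

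**Figure D1:**
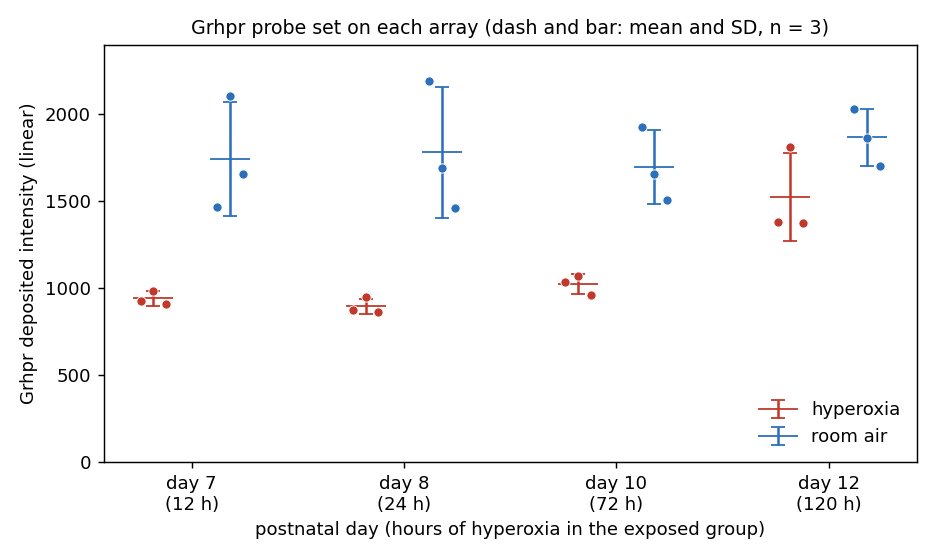
Deposited intensity of the Grhpr probe set (linear axis) in each of the 24 arrays, by postnatal day, with hyperoxia left of room air at each day. Points are arrays, and dashes with bars are means and SD of 3; hyperoxia arrays of days 7, 8 and 10 sit between 865.4 and 1072.4, below every room air array.

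Group means of the deposited intensity at day 7 were 941 ± 40.7 in hyperoxia and 1744 ± 329 in room air (SD, n = 3 each, as for the means that follow). At day 8 they were 896 ± 44.5 in hyperoxia and 1781 ± 375 in room air, and at day 10 they were 1022 ± 57.7 in hyperoxia and 1697 ± 215 in room air. At day 12 hyperoxia averaged 1523 ± 252 and room air 1866 ± 165. Hyperoxia means thus stayed near or under 1022 through day 10 and were higher at day 12, while room air means stayed within 1697 to 1866.

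On the log2 scale of the quantile-normalized intensities, hyperoxia minus room air was -0.87 at day 7, -0.96 at day 8, -0.75 at day 10 and -0.31 at day 12, each ± 0.15 (SE of the fit). These differences correspond to 54.6%, 51.6%, 59.4% and 80.9% of the room air level. The mean over the 4 days was -0.72 ± 0.08, or 60.7% of room air. No p is given for these differences, because they chose the gene. Without room air day 8 replicate 1 the day 8 difference was -0.79, and without hyperoxia day 12 replicate 2 the day 12 difference was -0.44. The mean of days was -0.68 without the room air array and -0.76 without the hyperoxia one.

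**Figure D2:**
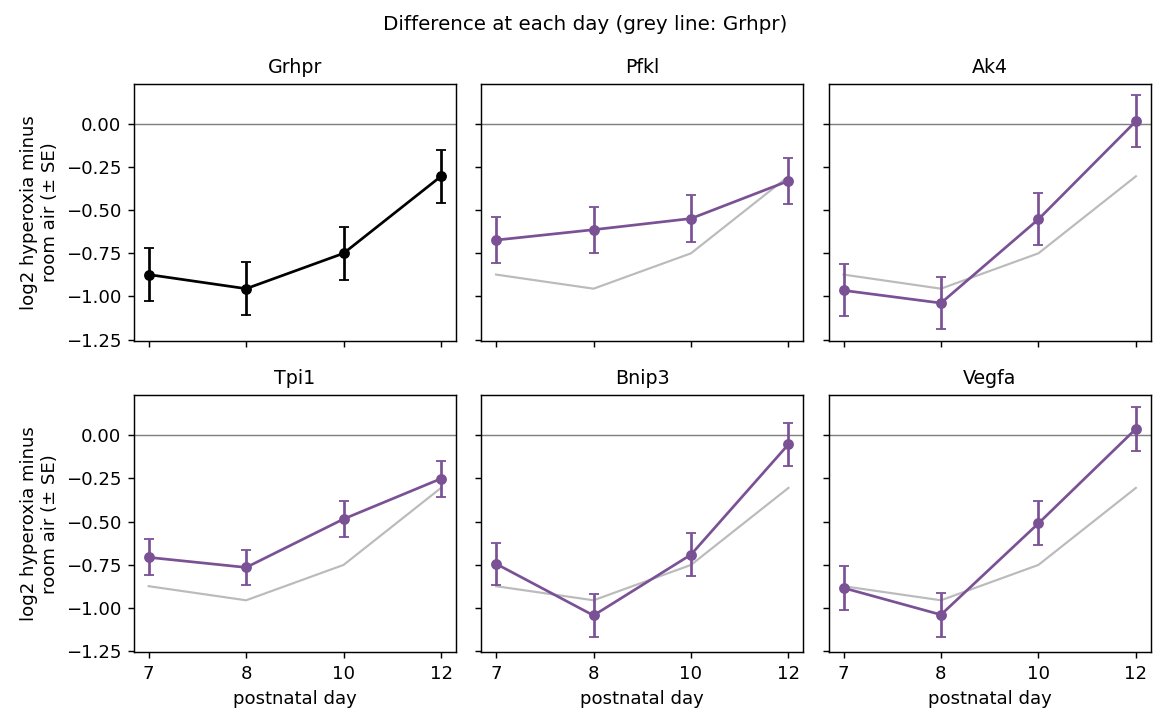
Hyperoxia minus room air (log2 difference, y axis) at postnatal days 7, 8, 10 and 12 for Grhpr, Pfkl, Ak4, Tpi1, Bnip3 and Vegfa, 1 panel per gene, each by its probe set closest to Grhpr, with bars for the standard error of the fit and a grey line repeating Grhpr. For Grhpr the difference is between -0.96 and -0.75 at the first 3 ages and -0.31 at day 12.

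Ordered from low to high by mean log2 level, the 8 groups were hyperoxia day 8, day 7, day 10 and day 12, then room air day 10, day 7, day 8 and day 12. The steps between neighbours were 0.05, 0.11, 0.59, 0.16, 0.01, 0.03 and 0.10. The arrays overlapped between every pair of neighbours except hyperoxia day 12 and hyperoxia day 10. The only break in the order was therefore inside the hyperoxia groups.

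Comparisons of ages within a condition were not used to choose Grhpr, although they share arrays with those that were. The low hyperoxia arrays of day 7 were among the values that chose it. That choice can favour a rise from them, so the p of a hyperoxia age difference is read with that limit. In hyperoxia, Grhpr was higher at day 12 than at day 7 by 0.70 ± 0.15 on the log2 scale, or 1.62-fold (limma, adjusted p = 0.00459 over all 15838 probe sets). Every day 12 array was above every day 7 array, as at 11.7% of tested probe sets. In that comparison 12.6% of all tested probe sets were called, 5.95% higher and 6.62% lower, so a call was common there. The p was 0.132 (adjusted) with the mean log2 level of the pigment markers as a covariate, where the difference was 0.52, and 0.0566 (adjusted) when only the arrays of the groups compared were fitted. Without hyperoxia day 12 replicate 2 the difference was 0.56 (adjusted p = 0.0305, limma).

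Most of that difference lay between days 10 and 12. The log2 difference was -0.05 for day 8 minus day 7 (adjusted p = 0.995), 0.16 for day 10 minus day 8 (adjusted p = 0.802) and 0.59 for day 12 minus day 10 (adjusted p = 0.119, limma). Only the day 12 over day 10 pair did not overlap, as at 7.48% of tested probe sets, and none of the 3 passed the test; between days 12 and 10, 0.404% of all probe sets passed it. Without hyperoxia day 12 replicate 2 the day 12 minus day 10 difference was 0.45 (adjusted p = 0.384, limma).

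In room air, Grhpr did not pass the test between ages. Day 12 minus day 7 was 0.13 ± 0.15 on the log2 scale (limma, adjusted p = 0.656), in a comparison in which 12.4% of probe sets were called, 7.17% higher and 5.23% lower. The day-to-day log2 differences were 0.03, -0.04 and 0.14, with adjusted p of 0.994, 0.951 and 0.932 in order. The 95% interval of the day 12 minus day 7 difference ran from -0.19 to 0.45, so a p that misses the threshold does not show that the level was constant.

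The hyperoxia minus room air difference at day 12 minus that at day 7 was 0.57 ± 0.22 on the log2 scale, and 0.43 without hyperoxia day 12 replicate 2. It is built from the differences that chose the gene, so it is given with no test.

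**Figure D3:**
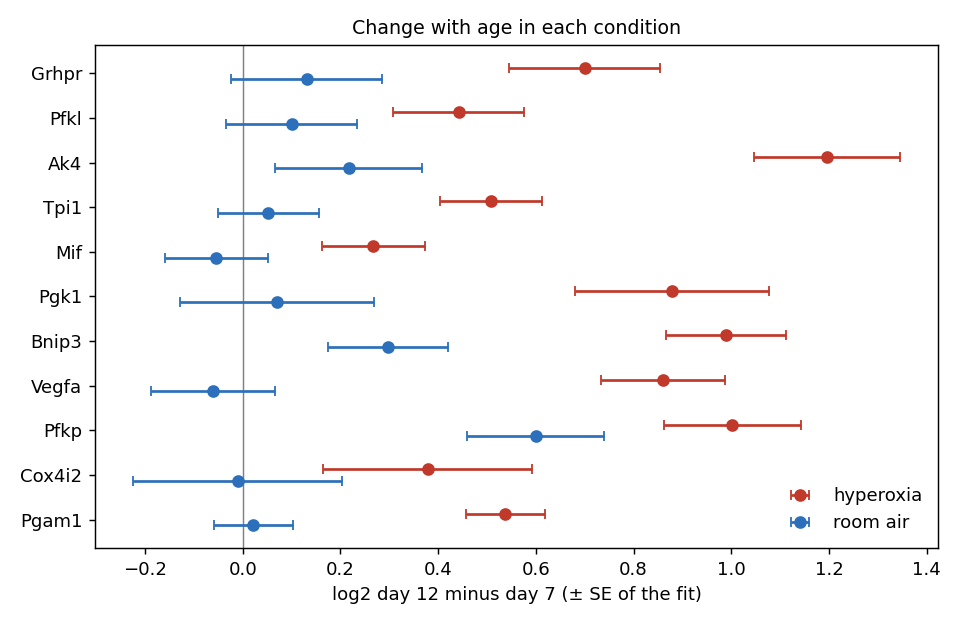
Day 12 minus day 7 (log2 difference, x axis) for Grhpr and the 10 genes most like it in pattern, within hyperoxia and within room air, with bars for the standard error of the fit. For Grhpr the hyperoxia point is 0.70 ± 0.15 and the room air point is 0.13 ± 0.15.

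Grhpr works beside enzymes that make and clear glyoxylate and glycolate. Of the 18 listed, 17 had a probe set and 11 passed the filter; Hao1, Hao2, Agxt, Prodh2, Dao and Gpt2 had probe sets under it, and Agxt2 had none with that symbol alone. None of the 11 was called between hyperoxia and room air on any day or in the mean of days, where 0.499% of all tested probe sets were called in either direction. In the mean of days 2 had an unadjusted p under 0.05 (limma), and on any single day at most 1 did. Their median difference was 0.01, with a range from -0.14 to 0.22, against 0.00 over all probe sets. The members with the lowest p were Ldha (lactate dehydrogenase A, which also acts on glyoxylate; -0.14 ± 0.05, adjusted p = 0.310), Ldhb (lactate dehydrogenase B; 0.22 ± 0.08, adjusted p = 0.384) and Cat (catalase; -0.14, adjusted p = 0.818).

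Hydroxypyruvate and D-glycerate lie beside serine and glycine metabolism. Of 19 listed genes 13 were tested and none was called between hyperoxia and room air (limma; median 0.01; 2 with an unadjusted p under 0.05). Phgdh, the first enzyme of serine synthesis and a member of the same dehydrogenase family, was 0.20 ± 0.06 on the log2 scale (adjusted p = 0.252). Shmt2, the mitochondrial serine hydroxymethyltransferase, was -0.19 ± 0.06 (adjusted p = 0.299). Mthfd1, a cytosolic folate enzyme, was 0.18 (adjusted p = 0.612). In the methylglyoxal detoxification list, which holds glyoxalases and aldo-keto reductases, 6 of 8 were tested, none was called by limma or had an unadjusted p under 0.05 in the mean of days, and the median was -0.06. At day 12 all 6 were negative, with a median of -0.20 against -0.004 over all probe sets. There 1 had an unadjusted p under 0.05 (limma) and none was called. At days 7, 8 and 10 the negative ones numbered 5, 1 and 5. The other measured members of the dehydrogenase family, the corepressors Ctbp1 (-0.01) and Ctbp2 (0.14), were not called either.

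Between day 12 and day 7 the numbers of these genes called were small. In hyperoxia 1 of 11 glyoxylate genes, 2 of 13 serine and glycine genes, 0 of 6 methylglyoxal genes and 1 of 3 family members were called, where 12.6% of all probe sets were. In room air 1 of 11, 3 of 13, 1 of 6 and 1 of 3 were called in the same order, where 12.4% of all probe sets were, so nothing particular to these lists is read from the counts. Gldc belongs to the first 2 of them. In hyperoxia, Gldc, the glycine decarboxylase of the glycine cleavage system, was 2226.2, 1931.2 and 2314.1 in deposited intensity at day 12, against 4048.9, 3665.3 and 3603.1 at day 7. In room air it was 2054.5, 2059.3 and 2118.8 at day 12, against 3796.2, 3884.7 and 3664.4 at day 7. In both conditions every day 12 array was below every day 7 array. On the log2 scale Gldc fell by 0.79 in hyperoxia (adjusted p = 1.37e-05, limma) and fell by 0.86 in room air (adjusted p = 4.37e-06, limma). Shmt2 fell by 0.67 in hyperoxia (adjusted p = 0.00102) and fell by 0.57 in room air (adjusted p = 0.00361). Over the same ages Grhpr was 0.70 in hyperoxia and 0.13 in room air. Only the hyperoxia difference passed the test, and not with the pigment covariate or with only the compared groups fitted. The low hyperoxia arrays of day 7 were among the values that chose Grhpr, which can favour that pass. A pass in 1 condition alone does not show that the changes differed between conditions.

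Hagh, the glyoxalase that ends methylglyoxal clearance, was 0.22 on the log2 scale for day 12 minus day 7 in hyperoxia (adjusted p = 0.131, limma) and did not pass. In room air it was higher at day 12 by 0.45 ± 0.09 (adjusted p = 0.00312, limma), and the hyperoxia minus room air difference of these 2 changes was -0.22 (adjusted p = 0.834), which did not pass. Mthfd2, a mitochondrial folate enzyme, was -0.75 (adjusted p = 0.041) in room air, and its adjusted p was 0.0815 to 0.137 without any 1 of the 6 arrays other than room air day 7 replicate 2, without which it was -0.86 (adjusted p = 0.0402). Ctbp1 was -0.34 in both conditions (adjusted p = 0.0315 in hyperoxia, 0.0326 in room air). In hyperoxia its call was lost without any 1 of the 6 arrays other than day 12 replicate 1 and day 7 replicate 3 (adjusted p 0.0553 to 0.148). In room air it was lost without any 1 of the 6 other than day 12 replicate 1 (adjusted p 0.0655 to 0.130). Glyctk, which phosphorylates D-glycerate, the product of Grhpr, was 0.41 ± 0.14 in hyperoxia (adjusted p = 0.0625) and did not pass.

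Grhpr was set beside the HIF target list, which was drawn up from textbook targets with earlier results of these arrays known. Of 43 listed genes 33 were tested. In limma, hyperoxia minus room air was called lower for 6 of them at day 7, 8 at day 8, 3 at day 10, none at day 12 and 14 in the mean of days, and higher for none. At day 12, 5 had an unadjusted p under 0.05. Over all tested probe sets the calls lower were 0.0631%, 0.0821%, 0.0568%, 0.0126% and 0.48% of probe sets in the same order, and the calls higher were 0.00631% at day 10, 0.0189% in the mean of days and 0% at the other ages. The members' median difference in the mean of days was -0.26, with 31 of 33 negative, against 0.00 over all probe sets.

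The 4 members with the lowest p, each by its brightest probe set, were Pfkl (-0.59 ± 0.05), Bnip3 (-0.63 ± 0.06), Pfkp (-0.66 ± 0.07) and Vegfa (-0.60 ± 0.06), each on the log2 scale as hyperoxia minus room air. Pfkl and Pfkp are phosphofructokinases of glycolysis, Bnip3 is a mitophagy receptor and Vegfa is the main angiogenic growth factor. In the mean of days, Grhpr was -0.72 on the same scale.

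**Figure D4:**
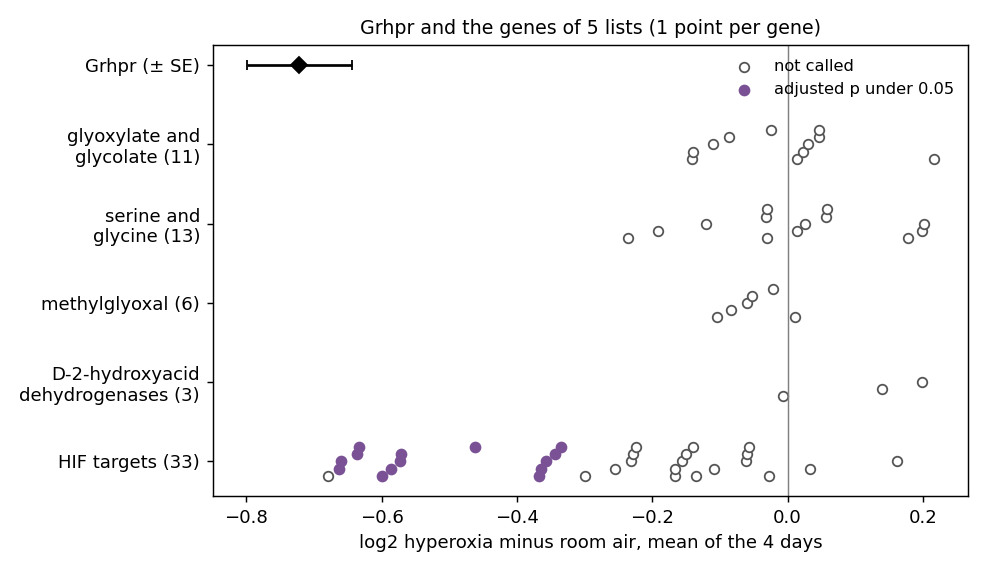
Hyperoxia minus room air, mean of the 4 days (log2 difference), for each tested gene of 5 lists and for Grhpr, with called genes marked. The 33 HIF targets have a median of -0.26, and the glyoxylate, serine and methylglyoxal lists have medians of 0.01, 0.01 and -0.06.

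The differences of several HIF targets are set beside those of Grhpr, with which they share all arrays. Where a gene had 2 tested probe sets, both are given. At days 7, 8, 10 and 12, Ak4, a mitochondrial adenylate kinase, was -0.97, -1.04, -0.55 and 0.01 by its brighter probe set and -1.001, -1.21, -0.83 and -0.46 by the other. The Ak4 probe sets thus differed at day 12. Vegfa was -0.88, -1.04, -0.51 and 0.04 by the brighter and -1.09, -0.47, -0.33 and 0.08 by the other, and Bnip3 was -0.74, -1.04, -0.69 and -0.05. Pdk1, a pyruvate dehydrogenase kinase, was -0.75, -0.49, -0.29 and 0.06 by the probe set counted in the list. By the other, Pdk1 was -1.16, -1.31, -0.52 and near 0. At day 12 Grhpr was -0.31, and Pfkl was -0.11 by the probe set counted in the list and -0.33 by the other, which followed Grhpr most closely. No test of the differences between genes was run.

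Over the 24 arrays the log2 signals most like Grhpr by Pearson r were those of Pfkl (r = 0.94), Ak4 (0.93), Tpi1 (0.91), Mif (0.90), Pgk1 (0.89), Bnip3 (0.86), Vegfa (0.85), Pfkp (0.85), Cox4i2 (0.85) and Pgam1 (0.85). Each r is that of the gene's closest probe set. The 10 genes had 18 tested probe sets in all, with r down to 0.61, the value of the other Pfkp probe set. Of the 10 genes, 9 are in the HIF list. Mif, a cytokine with tautomerase activity, is not in it. Spearman rho was 0.71 to 0.93 for the same genes. The arrays fall into hyperoxia and room air clusters and share one normalization, so these values are a description. Over all tested probe sets the median r was -0.02, with a 5th to 95th percentile range of -0.44 to 0.45. Of the 33 tested HIF targets, 22 had r above 0.5, as did 506 of all 15838 probe sets.

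**Figure D5:**
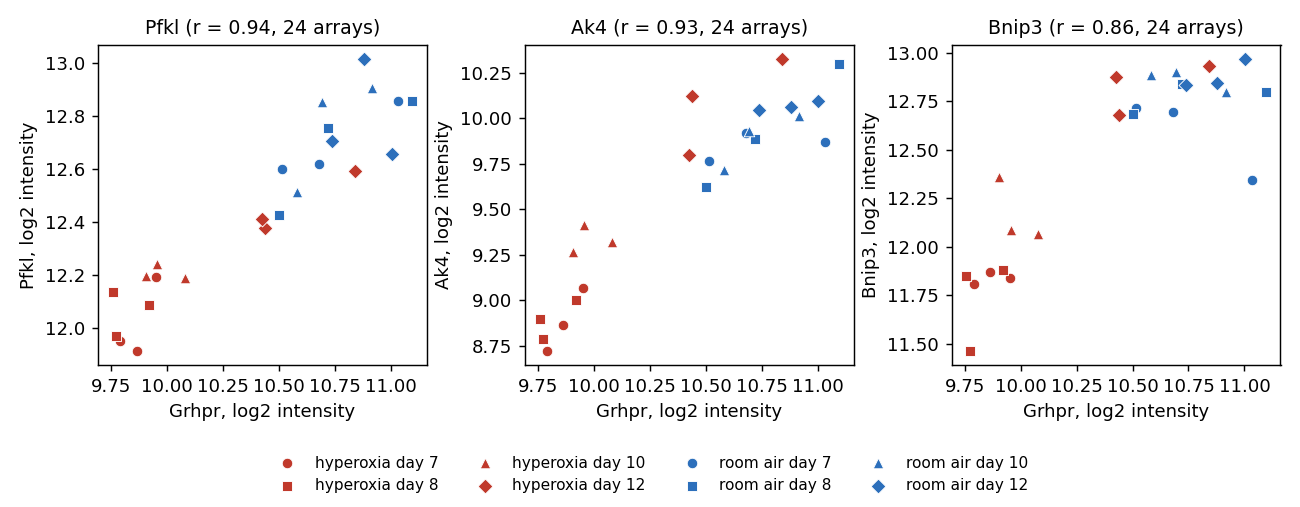
Log2 intensity of Pfkl, Ak4 and Bnip3 (y axis, 1 panel per gene) against that of Grhpr (x axis), 1 point per array, with conditions by colour and days by marker. The r over the 24 arrays is 0.94 for Pfkl, 0.93 for Ak4 and 0.86 for Bnip3, and hyperoxia arrays of days 7, 8 and 10 sit at the low end of each panel.

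Within the 12 hyperoxia arrays r stayed at 0.71 to 0.95 for the 10 genes. Within the 12 room air arrays it was 0.82 for Pgk1, 0.81 for Ak4, 0.70 for Pfkl, 0.65 for Cox4i2 and 0.56 for Tpi1. It was lower there for Pfkp (0.25), Mif (0.23) and Vegfa (0.05), and slightly negative for Pgam1 (-0.09) and Bnip3 (-0.10). No range over all probe sets is given for r within a condition. With the mean of each group removed, Pgk1 had r = 0.79, Ak4 0.77 and Pfkl 0.69, and Vegfa, Bnip3 and Pgam1 had -0.02, -0.08 and -0.26. By that measure the 10 highest genes had r of 0.87 to 0.90, and all of them were other genes. With the 2 arrays farthest from the median Grhpr level (hyperoxia day 8 replicates 1 and 3) left out, r of the 10 genes most like Grhpr was 0.81 to 0.93. These genes were chosen for following Grhpr, so their oxygen differences carry no p here. Their hyperoxia minus room air differences were -0.66 to -0.34 on the log2 scale in the mean of days and -0.33 to 0.04 at day 12.

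The 5 lowest correlations were those of Stx6 (r = -0.74), a syntaxin of the trans-Golgi network, Ino80 (-0.71), a chromatin remodeller, Agk (-0.70), a mitochondrial lipid kinase, Tbp (-0.69), the TATA-binding protein, and Cript (-0.68). Their hyperoxia minus room air differences in the mean of days were 0.17, 0.19, 0.15, 0.19 and 0.12 on the log2 scale. They were chosen for their correlation with Grhpr, so no p is given.

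Of the 3 nearest genes on each side of Grhpr, 1 was measured. Before Grhpr, Gm12679, Gm30763 and Gm12678 are noncoding and had no probe set with their symbol alone. After Grhpr, Zbtb5, which lies 508 bases from the end of Grhpr, and 1700055D18Rik had none. Polr1e, which encodes a subunit of RNA polymerase I, was 0.01 ± 0.13 in the mean of days (adjusted p = 0.995, limma). Its differences at days 7, 8, 10 and 12 were 0.13, 0.43, -0.14 and -0.39, and none passed the test.

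Markers of other cell types also differed in level between the groups. The summed intensity of 16 endothelial markers was 11555 to 14573 over the hyperoxia arrays and 12838 to 19064 over the room air arrays. The sum of 10 pigment markers was 19529 to 51744 at day 12 and 6118 to 15912 at day 7 in hyperoxia, and 23032 to 42258 at day 12 and 7320 to 28596 at day 7 in room air. The sum of 4 red blood cell markers was 397 to 941 in hyperoxia and 684 to 1545 in room air. No marker of these 3 lists was at the floor on every array. Slc4a1 and Hba-a2, 2 of the 4 red blood cell markers, were at it on 14 and 13 of the 24 arrays. The red blood cell sum thus lies partly near the floor. The most for a pigment marker was 22 arrays (Lrat), and for an endothelial marker 9 (Tie1). The part of endothelial, pigment and red blood cells in the Grhpr difference was not tested. With the mean log2 level of the pigment markers as a covariate the day 7 and day 8 differences were -0.80 and -0.90. The alternatives other than leaving out 1 array, that covariate included, gave -0.75 to -0.73 at day 10 and -0.44 to -0.30 at day 12. No endothelial or red blood cell covariate was fitted.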

How the data were processed

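Deposited values are linear intensities, 1 for each probe set on each array. The authors had scaled them: with 2% of values trimmed from both tails, array means were 1500.35 to 1500.40. The scaling software is not given in the sources used here. Array medians still spanned 570 to 680, so arrays were quantile normalized. Values under the 20th percentile (137) were raised to it and taken to log2. Controls (64 probe sets) were excluded, as were those with a mean below the 30th percentile, leaving 15838. Of the values, 0.349% were at the floor, so differences near it are understated. The number of arrays limits the precision.

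One limma fit (version 3.58.1, R 4.3.3) of the 8 group means covered all 24 arrays, with 16 residual and 3.55 prior degrees of freedom. The call threshold was an adjusted p of 0.05 (Benjamini-Hochberg over all 15838). The fit was tested on simulated data. Sequences and figures were handled in Python 3.11.15 with matplotlib 3.10.9. Symbols come from the platform annotation: 20380 probe sets had 1 symbol, 691 several and 1555 none. The RefSeq table held the gene identifiers of 20351 of those with 1. Genes of a list counted by their brightest probe set.

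The genes named are Grhpr, the 10 highest and 5 lowest in correlation with it, the list members called or, where none was, the 3 with the lowest p (the 4 lowest for HIF targets), the 3 nearest genes on each side, and Pdk1, Bnip3, Vegfa and Ak4. Members and lists were chosen with earlier results of these data known. Marker lists served to check the tissue, and some markers often at the floor are also named. Alternatives were the deposited scaling, floor, filter, replicate block, prior, lens or pigment covariate, fewer groups, and each array left out.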

Additional observations from a re-analysis of the deposited data

How the results depend on the processing

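The 5 Grhpr differences between hyperoxia and room air kept their sign under every alternative run, with ranges on leaving out 1 array of -0.99 to -0.73 at day 7, -1.09 to -0.79 at day 8, -0.83 to -0.66 at day 10, -0.44 to -0.23 at day 12 and -0.76 to -0.68 in the mean of days. Grhpr in hyperoxia at day 12 minus day 7 (0.70) was no longer past the threshold with the pigment covariate (0.52) or when only the arrays of the groups compared were fitted (0.70), and was 0.56 to 0.77 without 1 array; its adjusted p ran from 0.00194 to 0.132. In room air, day 12 minus day 7 was 0.02 to 0.28 without 1 array and did not pass under any alternative run. Room air day 8 minus day 7 turned to -0.13, and day 10 minus day 8 to 0.12, with room air day 8 replicate 1 and hyperoxia day 12 replicate 2 left out; leaving out 1 array gave -0.13 to 0.17 and -0.18 to 0.12. The cause was not tested.

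In room air at day 12 minus day 7, the number of glyoxylate genes called higher was 1 with the replicate block. The methylglyoxal count higher was 0 when only the arrays compared were fitted, and the dehydrogenase family count lower was 0 under the deposited scaling, with the pigment covariate and when only the arrays compared were fitted, and 0 to 1 without 1 array. With only the arrays compared, Shmt2 (adjusted p 0.0634 in hyperoxia, 0.0533 in room air) and Hagh (0.0965 in room air) did not pass. Of the 10 genes most like Grhpr, 6 were shared by Spearman rho, 6 with the mean of each day removed, 0 with the mean of each group removed and 7 to 10 without 1 array. Counts of probe sets in hyperoxia at day 12 minus day 7 were 777 with the pigment covariate, against 1992 without it. In room air they were 1193 to 1807 without 1 array, against 1964.

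The replicate numbers were not taken to pair the samples: deviations of same-numbered arrays correlated at -0.31 to 0.45 over the 12 pairs, though at 0.23 to 0.45 in the 3 pairs of day 12, and 5 of 12 hyperoxia arrays deviated most like the room air array of their number. With the replicate block, calls between hyperoxia and room air numbered 18 at day 7, 34 at day 10 and 4 at day 12, against 10, 10 and 2, and the hyperoxia day 12 minus day 7 difference was 0.70. No protein table was used, so protein identity was not run.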

Other observations

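Probe sets whose hyperoxia arrays lay below all room air arrays at each of the 4 days numbered 14, or 0.0884% of those tested. Grhpr was not among them, since day 12 overlapped. They include 1 of the 2 tested Ak4 probe sets, the one with -0.46 at day 12. They also include 1 of the 2 Pfkl probe sets, the one with -0.33 at day 12. Also among them were Plod2, a lysyl hydroxylase of collagen, and Cd34, a surface protein of endothelial and blood progenitor cells. The rest with 1 gene symbol were probe sets of Adgrl4, Fam162a, P4ha1, Pdlim3, Pfkp, Pltp, Prelid1, Rlf and Tpi1. These genes were named after their values were seen.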
